A study of Mus musculus with 9 samples.

Results

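Hepcidin and the BMP-SMAD pathway that drives it were examined in liver RNA through 10 genes: *Hamp*, *Hamp2*, *Id1*, *Id3*, *Smad6*, *Smad7*, *Bmp6*, *Tmprss6*, *Tfr2* and *Hfe*. They were taken by symbol from the 51912 genes of the deposited table, and 9 of the 10 passed the filter on low values and were among the 11968 nuclear protein-coding genes fitted. *Hamp*, *Hamp2* and *Id3* had been chosen from genes that differed in this same contrast, so their differences between groups are given as a description, with no test. The other 7 genes were added for their place in the pathway, and 6 of them were tested, while *Bmp6* was under the filter.

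The livers came from 9 fasted mice, all *Apoe*-/-*Ndst1* f/f *Alb-Cre*+ on a C57Bl/6 background. An antisense oligonucleotide (ASO) against apoC-III was given to 5 mice and a control ASO to 4, each at 50 mg/kg/week for 8 weeks. Both groups therefore lack apoE and carry a Cre driven by the albumin promoter, which acts in hepatocytes, against *Ndst1*, a sulfotransferase that builds heparan sulfate. Mice with intact *Apoe* or *Ndst1* were not analysed here, and the age and sex of the mice and the diet beside the sequencing are not given in the sources used here.

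Hepcidin, the peptide made from *Hamp*, is released by hepatocytes and removes the iron exporter ferroportin from the surface of gut cells and macrophages, which lowers plasma iron. Its transcription is driven by BMP ligands, BMP6 above all, which come from the endothelial cells of the liver sinusoids and act through receptors, the co-receptor hemojuvelin and SMAD proteins in the hepatocyte. The same signal induces *Id1*, *Id3*, *Smad6* and *Smad7*. HFE and transferrin receptor 2 tie this route to the iron load of transferrin, the protease TMPRSS6 damps it by cleaving hemojuvelin, and interleukin 6 acts on *Hamp* separately through STAT3.

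*Hamp* and *Hamp2* lie beside each other on the minus strand of chromosome 7 (GRCm38), *Hamp* at 30942368 to 30944032 and *Hamp2* at 30922372 to 30924681. *Hamp2* is a mouse copy whose peptide is not known to regulate iron. The stretches before both RefSeq transcription starts are shown so that the sequence of these near-identical copies can be read beside their values. Each run holds 240 bases, from -250 to -11 relative to the RefSeq start (GRCm38.p6), written 5′ to 3′ along the minus strand, at chr7:30944040-30944279 for *Hamp* and chr7:30924192-30924431 for *Hamp2*. The *Hamp2* run lies within the gene span given above, whose 5′ end is farther upstream than the RefSeq start. The *Hamp* run lies outside its span. Capitals mark the BMP-responsive core GGCGCC, the STAT site TTCNNNGAA and the AP-1 site TGAGTCA, each searched on both strands.
Hamp: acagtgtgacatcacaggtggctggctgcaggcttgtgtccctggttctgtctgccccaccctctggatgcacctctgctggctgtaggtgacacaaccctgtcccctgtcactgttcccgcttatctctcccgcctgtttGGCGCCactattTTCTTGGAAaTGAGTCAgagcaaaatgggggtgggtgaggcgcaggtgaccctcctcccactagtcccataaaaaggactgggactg
Hamp2: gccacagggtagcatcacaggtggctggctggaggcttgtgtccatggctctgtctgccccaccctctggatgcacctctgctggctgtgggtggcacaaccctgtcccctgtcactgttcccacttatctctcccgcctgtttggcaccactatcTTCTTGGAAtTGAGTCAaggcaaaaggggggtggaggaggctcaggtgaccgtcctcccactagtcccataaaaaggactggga

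Over 237 aligned bases the runs were 92.0% identical, with 19 substitutions. One fell in the BMP-responsive core, where, counting from 1 at the 5′ end of the *Hamp* run, G145A removed the match in *Hamp2*. Those 6 letters and their surroundings, with the core position in capitals, read as follows.
Hamp core: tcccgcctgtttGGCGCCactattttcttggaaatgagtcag
Hamp2 aligned stretch: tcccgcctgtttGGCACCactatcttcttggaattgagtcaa

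The GGCGCC match of *Hamp* began at -109 and had none in the *Hamp2* run. The STAT site began at -97 in *Hamp* and at -94 in *Hamp2*, and the AP-1 site at -87 and -84. GGCGCC occurs in 11.9% of the 32851 RefSeq promoter windows of 300 bases, TTCNNNGAA in 8.30% and TGAGTCA in 5.20%. Promoter windows were matched for 7 of the 10 genes, in 9 entries. Of the others, *Smad6* held the SMAD palindrome GTCTAGAC at -4 (0.213% of all windows), *Bmp6* the E-box CACGTG at -127 (7.15%) and *Hfe* an AP-1 site at -67, while the short SMAD motif CAGAC, present in 49.6% of windows, was found in *Id3*, *Tfr2*, *Hamp*, *Hamp2*, *Hfe* and *Bmp6*. A letter match is a description of the sequence and was not tested as a binding site.

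TPM, the deposited unit, is each gene's length-corrected share of a library, and it keeps no sequencing depth, so no counting interval could be given. Nuclear protein-coding genes held 3.04% to 5.31% of TPM with the apoC-III ASO, against 1.94% to 8.65% in control livers, the lowest in control ASO replicate 4, with most of the rest in the 7SL RNA. Values below are therefore nuclear protein-coding TPM rescaled to 1000000 per liver and divided by median-of-ratios factors, called rescaled TPM. *Apoc3*, the target, was at 334 to 622 rescaled TPM with the apoC-III ASO, against 3169 to 4291 in controls, 87.4% lower (exact two-sided permutation test, p = 0.0159, n = 5 and 4). Each liver came from a separate mouse, so the errors below are the spread between mice.

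Among the 10 genes *Hamp* was by far the most abundant and *Bmp6* the scarcest. Averaged over the 9 livers, *Hamp* was at 1670 rescaled TPM, *Tfr2* at 203, *Hamp2* at 75.8, *Tmprss6* at 45.7 and *Id3* at 22.1. *Hfe* (12.3), *Smad7* (12.2), *Id1* (6.13), *Smad6* (2.66) and *Bmp6* (0.774) followed. *Hamp* exceeded *Tfr2*, *Tmprss6* exceeded *Id3*, *Smad7* exceeded *Id1* and *Smad6* exceeded *Bmp6* in all 9 livers. *Hfe* and *Smad7* did not differ in order beyond their spread, with *Hfe* above *Smad7* in 3 of 9 livers, and *Hamp2* was above *Tmprss6* in 4 of 9. *Tfr2* was above *Hamp2* and *Id3* above *Hfe* in 7 of 9, and *Id1* above *Smad6* in 8 of 9.

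**Figure D1:**
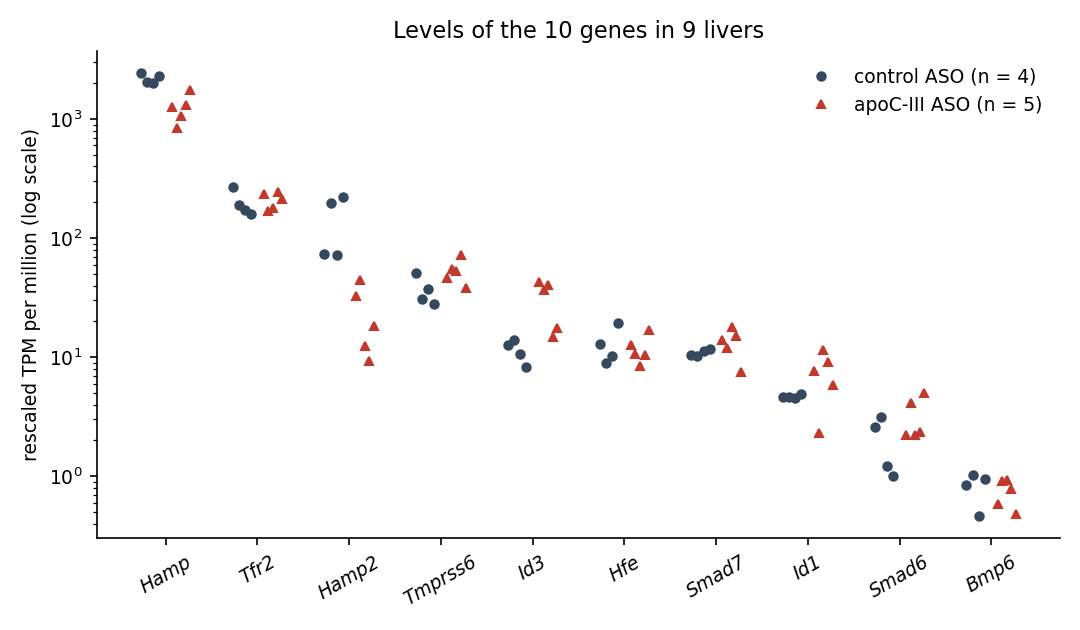
Rescaled TPM of the 10 genes on a log axis, with genes ordered by their mean over 9 livers, circles for the 4 control ASO livers and triangles for the 5 apoC-III ASO livers. The triangles of *Hamp* and *Hamp2* lie below every circle, those of *Id3* lie above, and the groups of the other 7 genes overlap.

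Among the 10 genes, *Hamp* and *Hamp2* were lower in every apoC-III ASO liver than in any control liver and *Id3* was higher in every one. Of all genes tested, 0.911% were lower and 0.919% higher without overlap, and since the 3 genes were chosen on this contrast nothing is read from their count. None of the 6 tested genes added for their place in the pathway was called (more than 1.5-fold, with limma's adjusted p below 0.05), against 0.0167% of all genes called lower (*Apoc3* and *Anpep*) and 0.0% called higher.

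*Hamp* was at 1255, 839, 1053, 1321 and 1771 rescaled TPM in apoC-III ASO livers 1 to 5 and at 2443, 2047, 2020 and 2283 in control livers 1 to 4. The highest treated liver, replicate 5, remained below the lowest control. The means were 1248 ± 348 (SD, n = 5) and 2198 ± 201 (SD, n = 4), a difference of -43.2% between means and a log2 fold change of -0.86 (SE 0.25). On this scale the spread was wider in the treated group, with a coefficient of variation of 27.9% against 9.16%. In TPM as deposited it was wider in controls, at 113.5 ± 71.9 (SD, n = 4) against 63.0 ± 16.9 (SD, n = 5). Without the median-of-ratios factors the range was also wider in controls, at 1134 to 2377 against 1205 to 1698.

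*Hamp2* was at 32.6, 44.5, 12.4, 9.21 and 18.2 rescaled TPM in apoC-III ASO livers 1 to 5 and at 73.3, 197.6, 72.2 and 221.8 in control livers 1 to 4. The controls fell into a lower pair, replicates 1 and 3, and a higher pair, replicates 2 and 4, a split not seen in *Hamp*. The means were 23.4 ± 14.8 (SD, n = 5) and 141 ± 79.7 (SD, n = 4), a difference of -83.4% between means and a log2 fold change of -2.57 (SE 0.49).

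The non-overlap of both hepcidin genes depended on the scale. In TPM as deposited *Hamp* ranged from 49.8 to 90.2 with the apoC-III ASO, against 22.0 to 196 in controls, and *Hamp2* from 0.477 to 2.94 and from 2.14 to 12.4, so both overlapped, and 5 of the 10 genes had a mean TPM of at least 1 on that scale. In both hepcidin genes control ASO replicate 4, at 22.0 and 2.14, was the only control not above every treated liver. The other controls were at 106.5 or more in *Hamp* and at 3.81 or more in *Hamp2*. With the rescaling but without the median-of-ratios factors, *Hamp* overlapped (1205 to 1698 against 1134 to 2377) and *Hamp2* did not (9.32 to 63.9 against 67.5 to 229). With the factors applied to TPM of all genes, neither overlapped. The median log2 fold change of all genes was 0.41 without the factors and 0.11 in TPM as deposited, against 0.00 in the main scale.

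Ratios within a liver do not depend on the scale. *Hamp* per *Tfr2* TPM, a pair of hepatocyte transcripts compared after the values had been seen, ranged from 4.97 to 8.28 with the apoC-III ASO, against 9.13 to 14.3 in controls, without overlap. Not every denominator gave this. Beside *Trf*, which encodes transferrin, *Hamp* overlapped, with *Hamp* at 1771 and *Trf* at 3085 rescaled TPM in apoC-III ASO replicate 5. In control replicate 2 they were at 2047 and 5700. The share of *Hamp2* in the sum of *Hamp* and *Hamp2* TPM was 2.53%, 5.04%, 1.17%, 0.692% and 1.02% in apoC-III ASO livers 1 to 5 and 2.91%, 8.80%, 3.45% and 8.86% in control livers 1 to 4. These shares overlapped through apoC-III ASO replicate 2.

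The hepcidin transcripts share sequence, which bears on how reads are divided between them. The annotated transcripts were 94.6% identical over 410 aligned bases, and 33.7% of the 31-base words of *Hamp* also occur in transcripts of other genes, all in *Hamp2*. Of those of *Hamp2*, 34.5% occur elsewhere, 128 words in *Hamp* and 63 in the noncoding gene *Gm44662*, which was listed at 0 in all 9 livers. The sum of *Hamp* and *Hamp2*, which does not depend on that division, was 1271 ± 341 (SD, n = 5) and 2340 ± 207 (SD, n = 4) rescaled TPM, a difference of -45.7% between means and a log2 fold change of -0.92 (SE 0.24). In bulk liver, fewer cells of a type and less RNA per cell cannot be told apart.

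**Figure D2:**
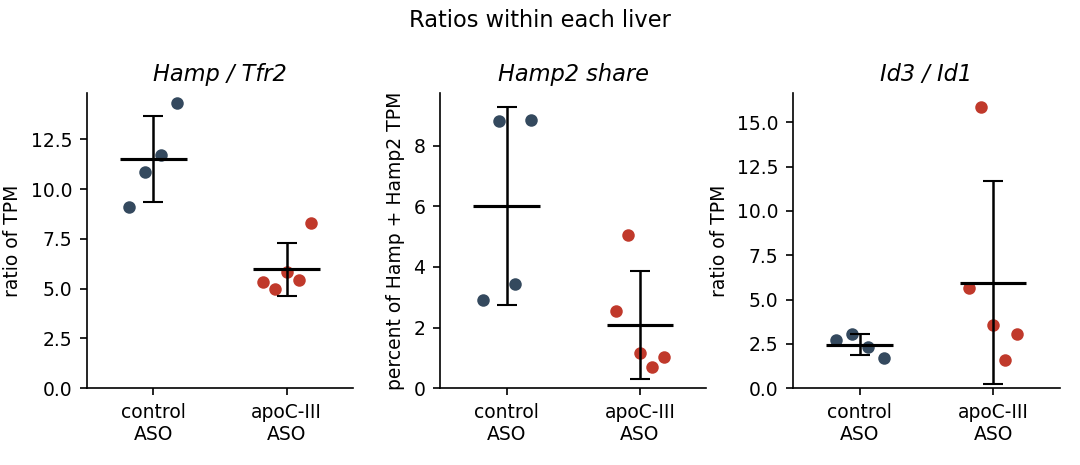
Ratios computed from deposited TPM within each liver, with points for livers, horizontal lines for group means and bars for ± 1 SD. *Hamp* per *Tfr2* (left) did not overlap between 4 control and 5 apoC-III ASO livers, while the *Hamp2* share of hepcidin TPM in percent (middle) and *Id3* per *Id1* (right) did.

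*Id3*, an inhibitor of basic helix-loop-helix factors and an early target of BMP signaling, differed in the other direction from the hepcidins. It was at 42.9, 36.9, 40.6, 14.7 and 17.7 rescaled TPM in apoC-III ASO livers 1 to 5 and at 12.8, 14.1, 10.7 and 8.29 in control livers 1 to 4. Replicates 1 to 3 were far above the rest, and replicates 4 and 5 were just above the highest control. The means were 30.6 ± 13.3 (SD, n = 5) and 11.5 ± 2.53 (SD, n = 4), 166.5% higher, with a log2 fold change of 1.24 (SE 0.34). In TPM as deposited the groups overlapped, at 0.511 to 3.09 and 0.0799 to 1.03, and they did so too with the rescaling alone, at 14.9 to 58.1 and 4.11 to 16.4.

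The split of *Id3* within the treated livers was also seen in some circadian clock genes, which were named after their values were seen. Of 14 clock genes tested, 4 were higher and 10 lower, with a median log2 fold change of -0.24. *Arntl*, which encodes the activator BMAL1, reached 17.7, 11.1 and 30.9 rescaled TPM in the treated replicates 1 to 3, and was at 0.740 and 2.74 in replicates 4 and 5 and at 0.320 to 2.46 in controls. *Dbp*, a clock output gene, ran the other way, at 2.92, 22.2 and 2.70 in replicates 1 to 3, 152 and 97.7 in replicates 4 and 5 and 68.2 to 103 in controls. *Nr1d1*, another clock gene, was not split so, at 21.8, 42.2, 21.6, 20.3 and 8.52 in replicates 1 to 5 and 1.905 to 25.8 in controls. Summed immediate early genes, which rise with stress or handling, were at 54.5 to 161 with the apoC-III ASO, against 52.2 to 63.4 in controls, and 9 of 9 tested were higher (median log2 fold change 0.54). Among them *Dusp1*, at 10.7 to 49.3 against 10.5 to 20.3, was already known to differ in this same contrast. In that sum replicate 3 (54.5) lay in the control range and the other 4 treated livers lay above it. *Hamp* was at 839 to 1255 in replicates 1 to 3 and at 1321 and 1771 in replicates 4 and 5, without a gap between these sets like that of *Id3*. All 5 were below the controls. In *Hamp2* the same sets of livers overlapped. The part of clock phase or immediate early expression in the *Id3* and *Hamp* values was not tested.

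**Figure D3:**
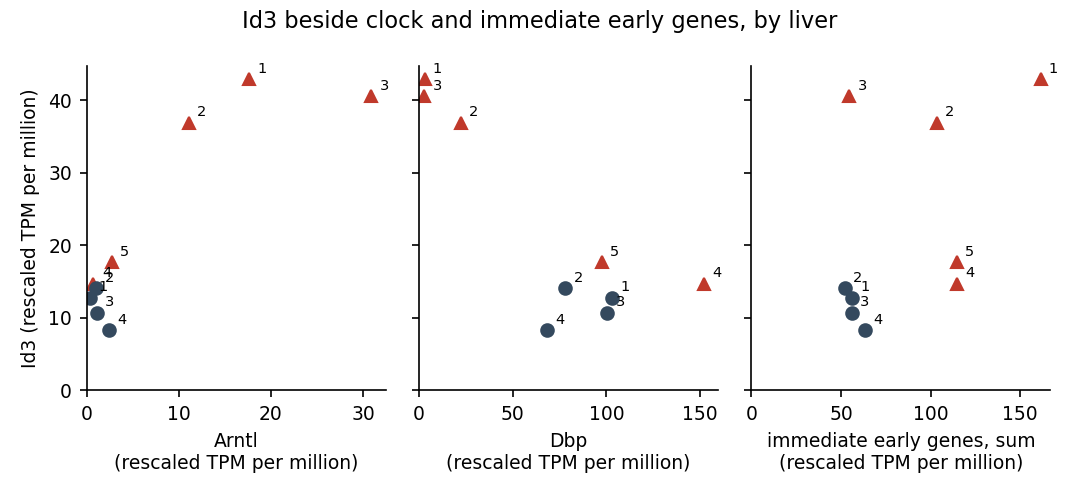
*Id3* against *Arntl*, *Dbp* and the sum of 10 immediate early genes, all in rescaled TPM, with triangles for apoC-III ASO livers, circles for control livers and replicate numbers beside the points. ApoC-III ASO replicates 1 to 3 have *Id3* at 36.9 to 42.9 together with *Arntl* at 11.1 to 30.9 and *Dbp* at 2.70 to 22.2, while replicates 4 and 5 have *Id3* at 14.7 and 17.7.

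For the other BMP targets the groups overlapped. *Id1*, which is induced by the same signal, was at 7.62, 2.33, 11.4, 9.19 and 5.81 rescaled TPM in apoC-III ASO livers and at 4.67, 4.65, 4.58 and 4.87 in controls. In all, 4 treated livers exceeded the control range and replicate 2 fell below it, so the groups overlapped (7.28 ± 3.45 against 4.69 ± 0.125, SD, n = 5 and 4). The log2 fold change was 0.41 (SE 0.34, limma adjusted p = 0.919). *Id3* per *Id1* TPM was 5.64, 15.8, 3.55, 1.60 and 3.05 in apoC-III ASO livers and 2.74, 3.03, 2.34 and 1.70 in controls, and these overlapped.

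*Smad6* and *Smad7* encode inhibitory SMADs, which are induced by BMP signaling and feed back on it. *Smad6* was at 2.21, 4.12, 2.21, 2.37 and 5.0 rescaled TPM in apoC-III ASO livers and at 2.59, 3.17, 1.23 and 1.01 in controls, with overlap. Its log2 fold change was 0.49 (SE 0.32, limma adjusted p = 0.901). *Smad7* was at 13.9, 12.1, 18, 15.2 and 7.46 in apoC-III ASO livers and at 10.4, 10.2, 11.2 and 11.7 in controls. As with *Id1*, 4 treated livers were above the control range and 1 was below, here replicate 5, and the log2 fold change was 0.22 (SE 0.25, limma adjusted p = 0.948).

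**Figure D4:**
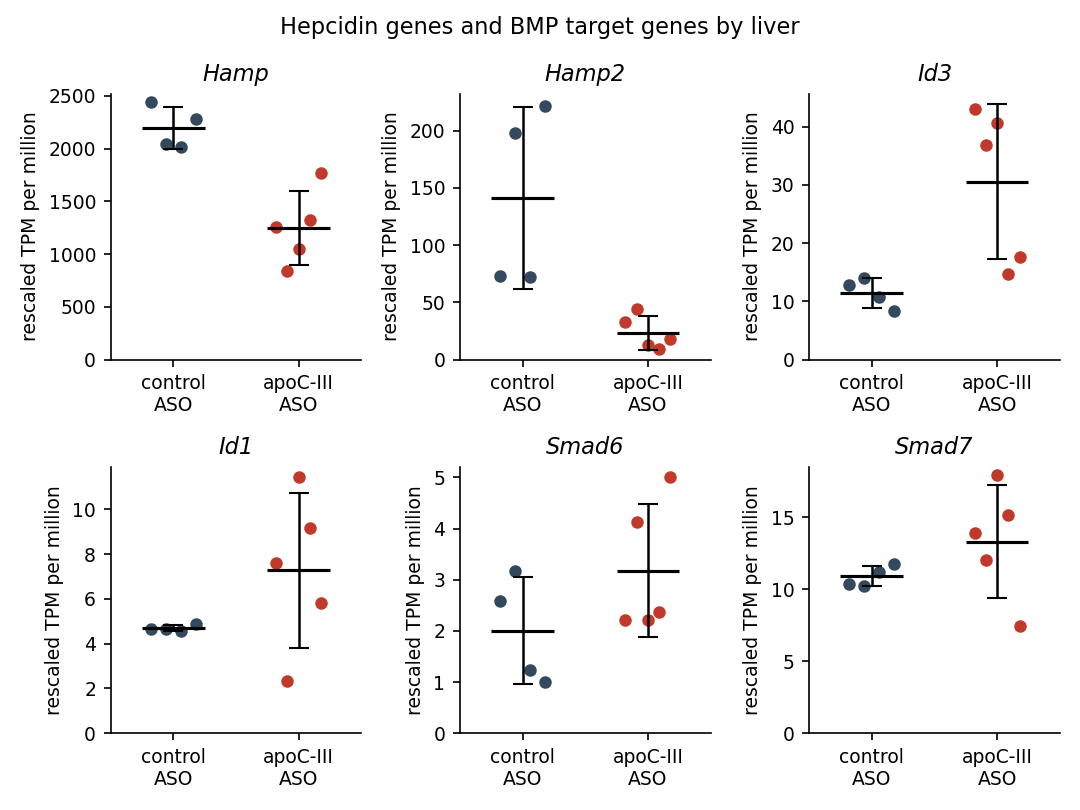
Rescaled TPM of the hepcidin genes and 4 BMP target genes in single livers on linear axes from 0, with horizontal lines for group means and bars for ± 1 SD (n = 4 control ASO, n = 5 apoC-III ASO). *Hamp* and *Hamp2* are lower and *Id3* is higher without overlap, while *Id1*, *Smad6* and *Smad7* overlap.

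The groups overlapped for all the upstream genes. *Bmp6*, the ligand, was below the filter of a mean of 1 and was not tested. It was at 0.590, 0.911, 0.932, 0.779 and 0.487 rescaled TPM in apoC-III ASO livers and at 0.840, 1.02, 0.465 and 0.941 in controls, and 5.20% of its 31-base words occur in other genes, mostly *Txndc5*. The groups overlapped over nearly their whole range.

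*Tfr2*, the liver transferrin receptor of the iron-sensing complex, was at 236, 169, 180, 243 and 214 rescaled TPM in apoC-III ASO livers and at 268, 189, 173 and 159 in controls. Its log2 fold change was 0.09 (SE 0.22, limma adjusted p = 0.987). *Hfe*, its partner in iron sensing, was at 12.8, 10.6, 8.43, 10.5 and 16.8 in apoC-III ASO livers and at 12.8, 9.01, 10.2 and 19.5 in controls. In both genes the groups overlapped, and the log2 fold change of *Hfe* was -0.09 (SE 0.27, limma adjusted p = 0.990), with a direction that turned without the median-of-ratios factors, with array weights and without apoC-III ASO replicate 3 or control ASO replicate 4. That of *Tfr2* turned with array weights.

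*Tmprss6*, the protease that restrains hepcidin, was at 46.2, 54.8, 53.2, 72.1 and 37.8 rescaled TPM in apoC-III ASO livers and at 50.8, 30.8, 37.4 and 28.0 in controls. In all, 3 of the 5 treated livers exceeded all controls. The means were 52.8 ± 12.7 (SD, n = 5) and 36.8 ± 10.2 (SD, n = 4), which gave a log2 fold change of 0.52 (SE 0.25, limma adjusted p = 0.882). This was the lowest adjusted p of the 6 tested genes added for their place in the pathway.

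In 6 lists of other pathway genes, 54 of 70 genes were tested, 34 higher and 20 lower, with a median log2 fold change of 0.10 against 0.00 over all genes (5968 higher and 6000 lower). None was called. At an unadjusted p under 0.05 stood 5 higher and 2 lower, against 3.0% of all genes higher and 2.57% lower.

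Of the BMP ligands, listed together with other ligands of the TGF-β superfamily, 3 of 8 tested were higher and 5 lower, with a median log2 fold change of -0.29. *Gdf15*, a stress-induced member of the TGF-β superfamily, had a log2 fold change of 1.17 (SE 0.43, limma adjusted p = 0.860) with 4.71 to 8.68 rescaled TPM against 0.216 to 5.01, and *Bmp5* one of -0.45. Of the receptors and co-receptors, 4 of 9 were higher, with a median of -0.09. *Acvrl1* (-0.61) and *Eng* (-0.50), both endothelial receptors, had the lowest values, and *Neo1*, a hemojuvelin partner, was at 0.39.

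Of the SMADs, their modifiers and other BMP targets, 10 of 12 were higher and 2 lower, with a median log2 fold change of 0.31, and none was at an unadjusted p under 0.05. *Smad3*, which acts for TGF-β and activin rather than BMP, was at 0.93, *Id2* at 0.67, and the ubiquitin ligases *Smurf1* and *Smurf2* at 0.43 and 0.35. Of the antagonists, 4 of 6 tested were higher, with a median of 0.20 and *Fst*, which encodes the activin binder follistatin, at 0.89. *Nog*, *Sost*, *Sostdc1* and *Erfe*, the erythroid hormone that lowers hepcidin by trapping BMPs, were listed at 0 in all 9 livers.

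Of iron-sensing and protease genes, 3 of 7 were higher, with a median log2 fold change of -0.01. *Slc40a1*, which encodes ferroportin, the target of hepcidin, was at 304, 198, 228, 272 and 390 rescaled TPM in apoC-III ASO livers and at 120, 113, 292 and 168 in controls. Control replicate 3 lay among the treated livers, and the log2 fold change was 0.75 (SE 0.31, limma adjusted p = 0.876). *Pcsk7*, a proprotein convertase, had a log2 fold change of -0.96 (SE 0.34, limma adjusted p = 0.860) and ranged from 24.6 to 100.9 in controls, highest in replicate 4. *Trf*, the iron carrier transferrin, was the most abundant gene of that list, with a log2 fold change of -0.15.

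Of the interleukin 6 and other routes to *Hamp*, 10 of 12 were higher, with a median log2 fold change of 0.22. *Socs3*, the feedback inhibitor induced by STAT3, had a log2 fold change of 1.85 (SE 0.83, limma adjusted p = 0.876), with 2.96 to 63.5 rescaled TPM with the apoC-III ASO, against 0.362 to 13.9 in controls. *Usf1* was at 0.63, the hepatocyte factor *Hnf4a* at 0.40 and *Stat3* at 0.37. Among controls, replicate 4 had the lowest *Socs3* (0.362) and *Smad3* (1.92) and the highest *Eng* (72.1) and *Acvrl1* (6.03). The acute phase genes, which share the STAT3 route with *Hamp*, were split, with 9 of 17 higher and a median of 0.01, and their sum was 11750 to 17440 against 10340 to 16740.

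**Figure D5:**
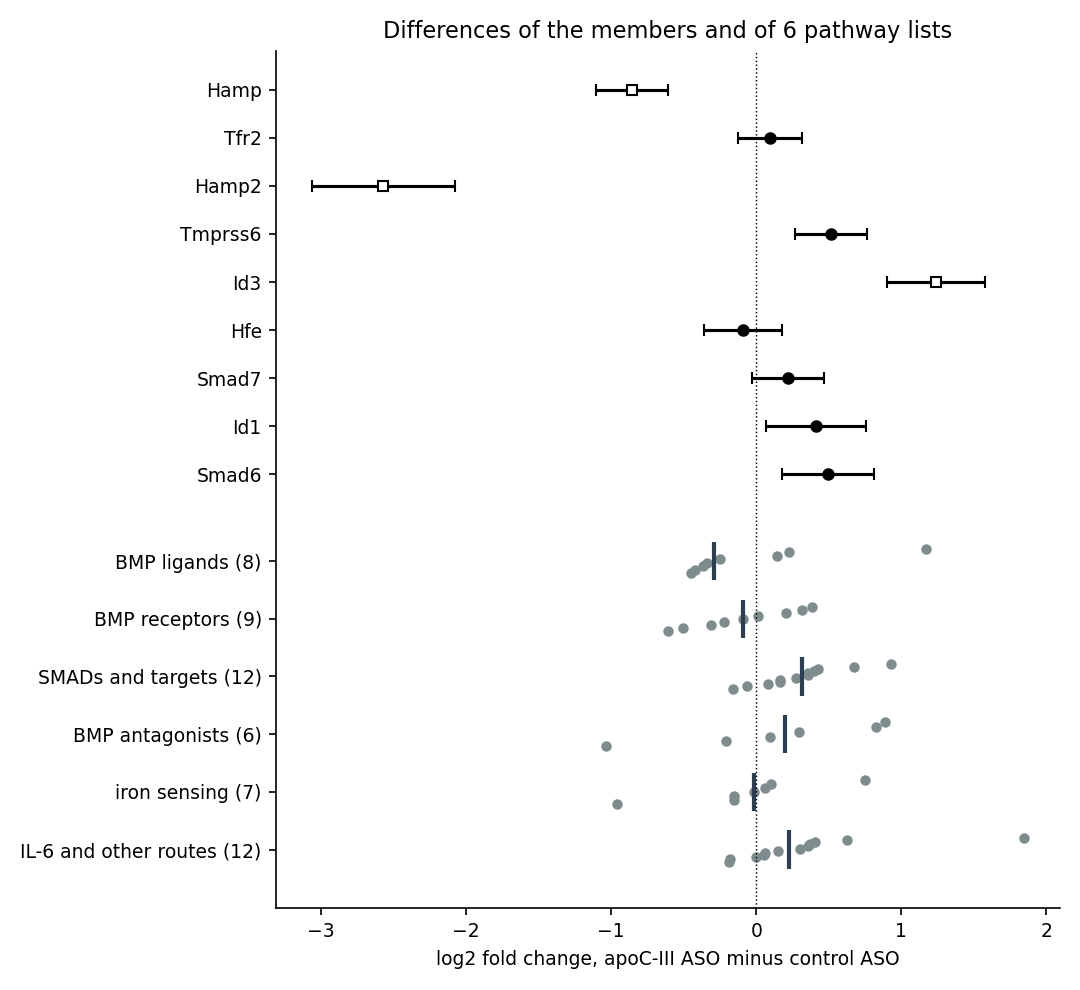
Log2 fold changes (apoC-III ASO minus control ASO) of the 9 genes fitted with bars for ± 1 SE, open squares for the 3 chosen on this contrast, and below them the tested genes of 6 pathway lists as points with the list median as a vertical line and the number of genes in parentheses. The lowest value is *Hamp2* at -2.57, and list medians lie between -0.29 and 0.31.

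Markers of liver cell types were given beside these values because BMP ligands come from sinusoidal endothelial cells and hepcidin from hepatocytes. The 5 hepatocyte markers had 1 higher and 4 lower, and their sum ranged from 23100 to 52790 rescaled TPM with the apoC-III ASO, against 32500 to 39540 in controls. Among the 4 lower, *Serpina1c* was already known to differ in this same contrast. The 8 sinusoidal endothelial markers (5 higher, 3 lower) summed to 131 to 376 and 166 to 323, and the Kupffer cell and macrophage markers (3 higher and 3 lower of 6 tested) to 66.2 to 101.5 and 63.7 to 113.6. These sums overlapped.

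Of the 7 stellate markers, 1 was higher and 6 lower, with sums of 124 to 160 and 150 to 253, and *Lrat*, which stores retinol as esters and had also been chosen on this contrast, did not overlap. Cholangiocyte markers (2 of 5 tested) summed to 2.80 to 7.04 and 2.86 to 5.09, with *Krt19*, *Epcam* and *Cftr* at 0 in at least 1 liver. Lymphocyte markers (2 of 6 tested, both lower) summed to 7.73 to 26.8 and 12.5 to 29.8, with *Cd3e* and *Cd79a* at 0 in at least 1 liver. The part of any cell type in the values of *Hamp*, *Hamp2* or *Id3* was not tested.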

How the data were processed

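Total RNA of 9 livers, depleted of ribosomal RNA, was sequenced with single-end stranded reads. Gene-level TPM was deposited. For it the submitters' notes name kallisto 0.43.1 and GRCm38, whereas the study's methods describe STAR, featureCounts and DESeq2 on read counts that were not analysed here. Since TPM holds no depth, precision rests on the spread between livers, which had 13948 to 15193 protein-coding genes above 0.

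Identifiers were matched to GENCODE M21 (99.6% of 51912). TPM of 21857 nuclear protein-coding genes was rescaled to 1000000 per liver and divided by median-of-ratios factors from 12263 genes. Genes with a mean of at least 1 were tested on log2(value + 1), where the added 1 understates the fold changes of low genes. The test used the lmFit and eBayes (with trend) functions of limma 3.58.1 under R 4.3.3, 5 livers against 4 without covariates. Benjamini-Hochberg adjustment was over all genes tested. Calls needed more than a 1.5-fold change with an adjusted p below 0.05. The fit and the calls were tested on simulated data with known changes, drawn from the means and spreads of the rescaled values. That simulation did not cover the rescaling or the median-of-ratios factors. Tables were handled in pandas 2.3.3 and numpy 2.4.6 under Python 3.11.15, permutations ran in scipy 1.17.1 and figures in matplotlib 3.10.9.

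The 10 genes, the lists and the scale were chosen with earlier results of these data known. Of each pathway list the text names the gene of highest level, the 2 largest changes, the 2 smallest p-values and any gene called or without overlap. The values of 1 gene that this rule names are not reported here. Alternatives were other scales, pseudocounts of 0.1 and 0.5, other filters, eBayes without trend, array weights, each liver left out, a replicate block and other thresholds. The check of overlap on other scales was added after seeing the data. Promoters were read from RefSeq windows, and transcripts from GENCODE M21 were compared by words of 31 bases.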

Additional observations from a re-analysis of the deposited data

How the results depend on the processing

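*Hamp* kept a negative log2 fold change under all 19 alternatives (-0.99 to -0.38), as did *Hamp2* (19, -2.85 to -1.50), and *Id3* a positive one under all 18 (0.68 to 1.68), as did *Id1*, *Smad6*, *Smad7* and *Tmprss6* under theirs. No limma adjusted p of the 6 tested genes added for their place in the pathway passed, the lowest being 0.450. *Tfr2* reversed to -0.0030 with array weights. *Hfe* reversed to 0.35 without factors, 0.0078 with array weights, 0.01 without apoC-III ASO replicate 3 and 0.11 without control ASO replicate 4 (-0.23 to 0.11 with any 1 liver left out).

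Genes called higher numbered 0, but 5 in TPM as deposited, 1 in TPM with factors, 1 with the replicate block and 0 to 1 with a liver left out (1 without apoC-III ASO replicate 3). Genes called lower numbered 2, but 6 in TPM as deposited and 3 with array weights. They numbered 1 in TPM with factors, 1 without factors, 1 with no filter and 1 without trend. With a liver left out they numbered 1 to 3. There was 1 without apoC-III ASO replicates 1, 2, 3 or 4 or control ASO replicates 1 or 3. There were 3 without apoC-III ASO replicate 5 or control ASO replicate 4. Genes lower without overlap were 2 of the 10, but 0 in TPM as deposited and 1 without factors. Higher without overlap was 1, but 0 on both those scales. Of all genes, 0.0405% were lower and 0.182% higher without overlap in TPM as deposited, and 0.0996% and 3.82% without factors. Without control ASO replicate 4 the counts were 2 and 1, against 1.964% of all genes lower and 1.955% higher. The cause was not tested. The labels do not say whether a replicate number pairs the livers. Correlations of deviations were 0.03 to 0.19 for livers of the same number and -0.21 to 0.18 for the rest, which does not decide it. With the replicate block the log2 fold changes of *Hamp*, *Hamp2* and *Id3* were -0.99, -2.54 and 1.40. TPM keeps no depth, so what depth limits could not be measured.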
